A study of Mus musculus with 9 samples.

Results

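Wolframin, encoded by Wfs1, and 9 genes of the unfolded protein response were followed across 9 RNA-seq libraries of mouse oocytes, 10 genes of the 24736 measured. The 9 are Ern1, Atf6 and Eif2ak3 (stress sensors of the endoplasmic reticulum, ER), Xbp1, Atf4 and Ddit3 (transcription factors), Hspa5 and Hsp90b1 (ER chaperones) and Sel1l (disposal of misfolded proteins). Rows were taken by gene symbol. The members were chosen with results known: Wfs1 was among the genes that separated stress from control most clearly in an earlier analysis of these libraries, and the others were added for their roles. The values of Wfs1 in that contrast are therefore a description, with no test.

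The oocytes were halted at the second meiotic metaphase and came from female ICR mice, an outbred stock, labelled 4 to 5 weeks old. Each library was made from 15 oocytes of 1 mouse, with 3 mice in each of 3 groups. Control mice had no stress. Stress mice were exposed to chronic unpredictable mild stress for 6 weeks. This is a series of daily stressors such as tail pinch, cold swim, restraint and loss of food or water. Mice of the KYZY group were exposed to the same stressors over 6 weeks. They were afterwards gavaged for 4 weeks with Kai Yu Zhong Yu (KYZY), an herbal recipe prepared as a decoction, at 0.1 ml daily. Ovulation was induced in all 9 mice, controls included, with PMSG at 7.5 IU followed by hCG at 7.5 IU. Oocytes were collected from the oviduct 16 hours after hCG and stripped of cumulus cells, the follicle cells that surround them, with hyaluronidase. The labelled age is shorter than the 6 weeks of stress, so it cannot be the age of stress and KYZY mice at collection. The labels name no stressed group kept for the added weeks on a vehicle, and they describe another sequencing set-up for the KYZY libraries. Recipe, elapsed time and sequencing run therefore cannot be told apart.

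Proteins that enter the ER are folded there with chaperones, and unfolded protein in its lumen activates 3 membrane sensors. IRE1 alpha (Ern1) splices the Xbp1 mRNA, PERK (Eif2ak3) phosphorylates the initiation factor eIF2 alpha and so favours translation of Atf4, and ATF6 is cut by proteases to release a transcription factor. Their targets include chaperones, degradation factors and, under lasting stress, the pro-apoptotic factor CHOP (Ddit3). Wolframin is an ER membrane protein linked to calcium balance and to restraint of ATF6, and its loss causes Wolfram syndrome. Oocytes at this stage make almost no new RNA, so their transcripts are stored ones.

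Regulatory sequences known from the response are shown first, with the members in which they occur. IRE1 alpha removes a short stretch from the Xbp1 mRNA by cutting inside 2 CNGCAG motifs, in each after the third base. In the GENCODE M21 transcripts (GRCm38), a search for CNGCAG, any 20 bases and CNGCAG found 2 matches in transcript Xbp1-201, and 1 of them was shared by 3 of 3 coding transcripts. That one lies in the coding sequence within exon 4 of 5 of Xbp1-201, at chr11:5524279-5524304 on the plus strand. The capitals mark the 26 bases between these cuts, a length that leaves a remainder of 2 when divided by 3 and so shifts the reading frame:
Xbp1 excised stretch: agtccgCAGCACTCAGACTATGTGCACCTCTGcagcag
The deposited values are 1 number per gene, so spliced and unspliced Xbp1 were not distinguished.

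The classical ER stress response element, ERSE, is bound by cleaved ATF6 and by XBP1. It was searched on both strands as CCAAT, any 9 bases and CCACG in the 250 bases before RefSeq starts (GRCm38.p6), and promoters were matched for 9 of 10 members, all but Atf6. Matches were found in 2 of 9 members, both of them the chaperones, and in 37 of 32851 promoters of the table, or 0.113%. They are shown with the element in capitals, 5′ to 3′ on the strand of the gene, because Hspa5 and Hsp90b1 are followed together below:
Hspa5, 65 to 47 bases before the start (chr2:34772020-34772048, plus strand): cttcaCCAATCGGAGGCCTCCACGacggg
Hsp90b1, 212 to 194 bases before the start (chr10:86705633-86705661, minus strand): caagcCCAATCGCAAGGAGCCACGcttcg
Hsp90b1, 107 to 89 bases before the start (chr10:86705528-86705556, minus strand, element on the opposite strand): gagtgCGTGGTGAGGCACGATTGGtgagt
The shorter CCAAT box, which is part of ERSE, occurred in 7 of 9 members and in 33.8% of all promoters. Wfs1 carried 1 such box and no ERSE:
Wfs1, 93 to 89 bases before the start (chr5:36989059-36989087, minus strand, box on the opposite strand): cagcacatagtgATTGGcaggcttgccgg
Neither the ERSE-II form (ATTGG, any base and CCACG; 0.0304% of all promoters), the XBP1-bound core TGACGTGG (0.563%) nor the amino acid response element TGATGNAAN of ATF4 (3.44%) was found in these windows of the 9 members. Members were counted when any of their promoters matched, while the shares of the table are per promoter. A match is a description of letters, not of binding.

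All 10 of 10 members passed the filter on low counts that left 13890 genes for testing. Xbp1 was under the floor defined below in control 1, control 2 and stress 1, and the other members were above it in each library. Levels are given as CPM, the counts of a gene relative to the library total after TMM scaling (edgeR's trimmed mean normalization). A value of 12 counts, about 3 read pairs, was taken as the floor below which a gene is not told from 0. It came to 0.105 to 0.245 CPM per library. This floor covers counting error only, since copies made by amplification were not marked and are not separate molecules. Total counts ran from 46324094 to 106990821 per library. All 14 of 14 oocyte markers were above the floor in each of the 9 libraries, with a summed level of 26440 to 52100 CPM. In control 3, stress 3, KYZY 2 and KYZY 3, 24 to 29 of 34 markers of cumulus and granulosa cells were above the floor, against 10 to 16 in the other 5 libraries. Their mean log2(CPM + 1) was 1.90 to 2.62 in those 4 libraries and 0.94 to 1.20 in the others. Tnfaip6 and Ptx3, genes of the cumulus matrix, were at 0 in the 5 libraries and at 1.94 to 16.5 and 0.916 to 2.86 CPM in the 4. Both are named here after their values were seen, and not every listed marker followed this split. Star was at 0.373 CPM in stress 3 and 3.54 in stress 2, and Lhcgr at 0 in KYZY 2 and 0.864 in stress 2. Sdc1 was lowest in control 3, at 155 CPM. Of 10 oviduct epithelium markers, 8 to 9 were above the floor in control 3 and KYZY 3 and 2 to 7 in the others, and 10 of 10 stroma and endothelium markers in those 2 libraries against 4 to 9. Of 12 blood and immune markers, 9 were above it in KYZY 2 and 2 to 6 elsewhere. These 4 libraries stand apart, and the fold changes of each member but Xbp1 are given below with and without them. Without them KYZY 1 alone represents its group.

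Compared per kilobase of transcript, the members covered more than 2 orders of magnitude, and the IRE1 alpha sensor had the highest mean in each group. It was the highest member in 8 of 9 libraries, while in KYZY 3 Hsp90b1 was at 81.6 and Ern1 at 78.9 CPM per kb. In control oocytes Ern1 was at 85.2 ± 18.9 CPM per kb (SD, n = 3), Hsp90b1 at 47.9 ± 21.7 and Wfs1 at 17.3 ± 3.72. Hspa5 was at 15.9 ± 4.01, Atf4 at 13.2 ± 6.87, Sel1l at 5.13 ± 0.662 and Atf6 at 4.61 ± 0.304 CPM per kb. The lowest were Ddit3 at 1.73 ± 0.521, Eif2ak3 at 0.889 ± 0.258 and Xbp1 at 0.687 ± 1.16 CPM per kb. In this order the control ranges of Ern1 and Hsp90b1 overlapped, as did those of Wfs1, Hspa5 and Atf4, and those of Sel1l and Atf6. The control range of Xbp1 overlapped those of Eif2ak3 and Ddit3. Averaged over 9 libraries, Ern1 was above 96.2% of 13703 genes per length, Hsp90b1 above 94.0% and Wfs1 above 87.7%, while Eif2ak3 was above 38.7%. The 2 kinase sensors thus stood far apart: Ern1 ranged from 67.6 to 176 CPM per kb over the 9 libraries and Eif2ak3 from 0.339 to 1.26.

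**Figure D1:**
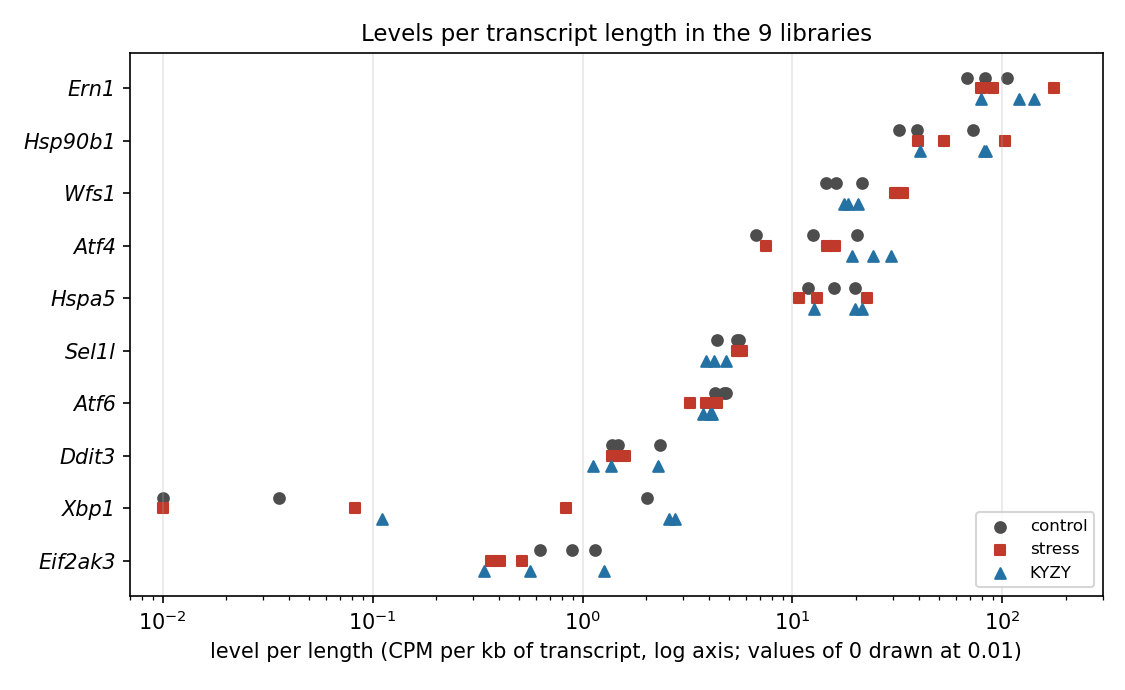
Level per length of each member in the 9 libraries, in CPM per kb of transcript on a log axis, with circles for control, squares for stress and triangles for KYZY. Ern1 lies at 67.6 to 176 CPM per kb, and Xbp1 spreads from 0, drawn at 0.01, to 2.75.

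Wfs1 (chr5:36966104-36989205, minus strand, GRCm38) was higher in all 3 stress libraries than in any other. It was at 81.4, 60.9 and 54.4 CPM in control 1, 2 and 3, at 117, 127 and 118 CPM in stress 1, 2 and 3, and at 77.6, 69.5 and 66.5 CPM in KYZY 1, 2 and 3. The 3 stress libraries lay close together, and control and KYZY libraries overlapped. Means were 65.6 ± 14.1 CPM in control, 121 ± 5.65 in stress and 71.2 ± 5.74 in KYZY (SD, n = 3). The fitted log2 fold change was 0.88 (SE 0.201), or 1.84-fold, in stress minus control, -0.76 (SE 0.201) in KYZY minus stress, and 0.12 (SE 0.200) in KYZY minus control. The first of these contrasts chose the gene, and the second uses the same stress libraries. These values were 0.79, -0.64 and 0.15 without the 4 libraries that stand apart. Per length, Wfs1 in stress (30.9 to 33.6 CPM per kb) lay above Hspa5 (10.8 to 22.8) in the same libraries.

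**Figure D2:**
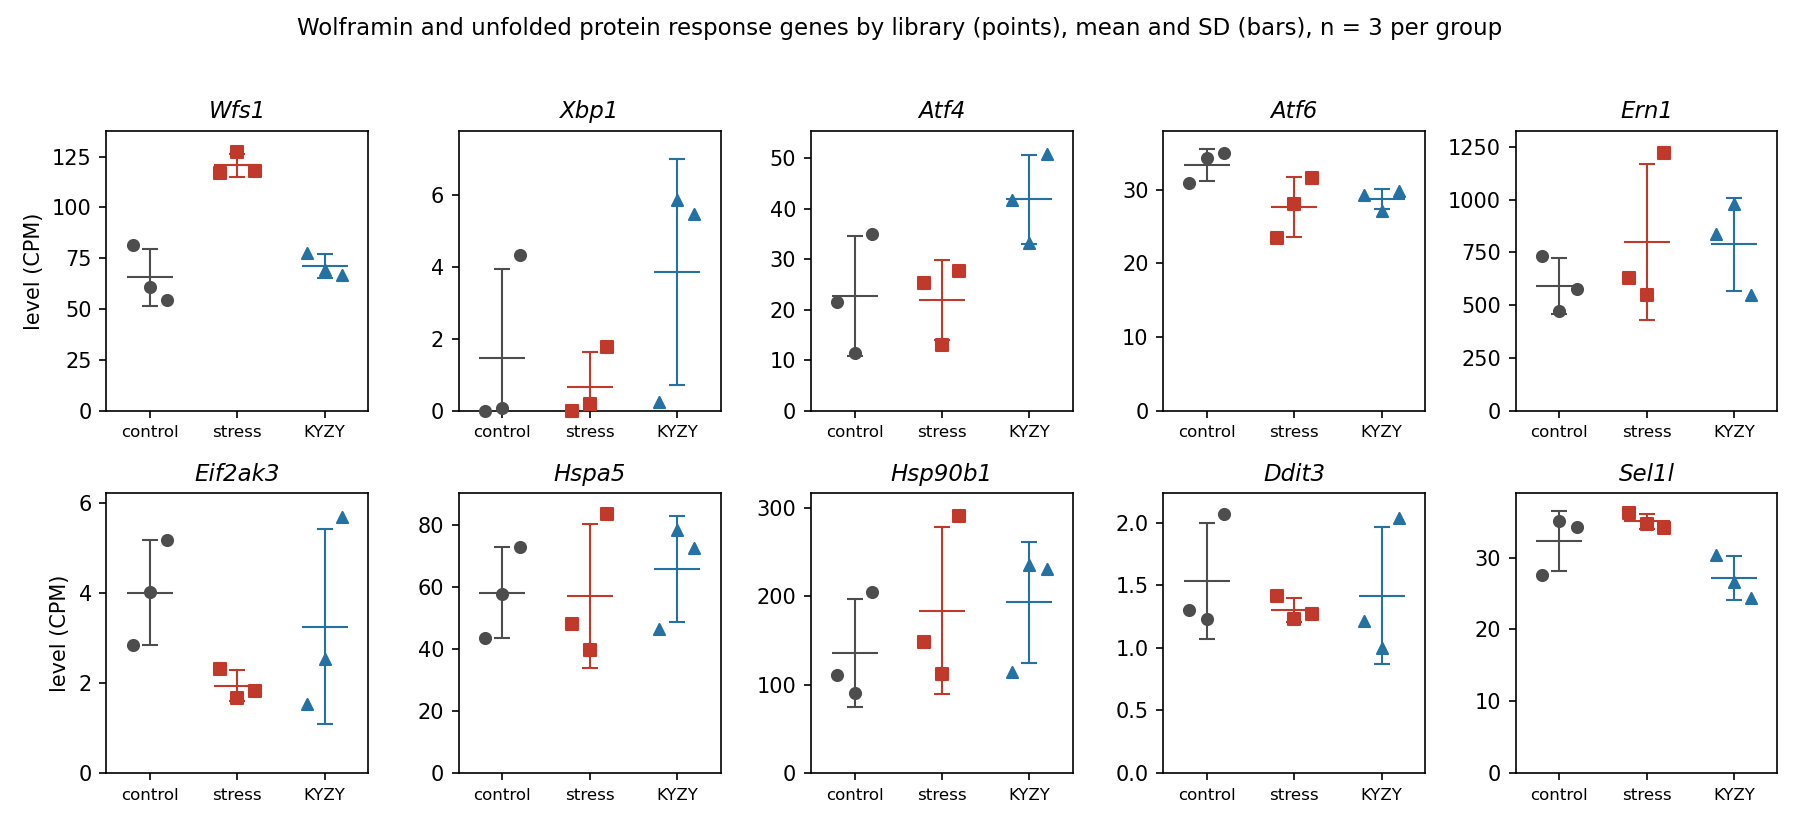
Level of each member in CPM, with 1 point per library and the mean and SD of 3 libraries per group; points are in replicate order, each vertical axis has its own scale from 0, and SD bars end at 0. Stress libraries of Wfs1 sit at 117 to 127 CPM, above 54.4 to 81.4 in the other groups.

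The 5 genes whose profile over the 9 libraries was most like that of Wfs1 were not among the members or the listed genes. All lists together, markers included, hold 248 symbols, few beside the genes ranked, so nothing is read from this. Likeness was the root mean square difference of centred log2(CPM + 0.5) among 5113 other genes with a mean of at least 10 CPM. The closest was Ogdh, a subunit of the 2-oxoglutarate dehydrogenase complex of mitochondria, at a difference of 0.179. It had means of 48.8 CPM in control, 78.9 in stress and 46.7 in KYZY. Next came Mid1, a microtubule-associated ubiquitin ligase (0.203), Med12 of the Mediator complex (0.207), the growth factor receptor Egfr (0.207) and Fry (0.218). Among members, Sel1l was nearest to Wfs1 with 0.392 and Xbp1 farthest with 1.75. The 9 libraries are shared by all genes, so this ranks profiles and tests nothing.

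Of the 3 sensors, Atf6 was steady, while Ern1 and Eif2ak3 varied more. The within-group SD of the log2 level was 0.474 for Ern1 and 0.532 for Eif2ak3. Ern1 (chr11:106394650-106487852) was at 731, 470 and 574 CPM in control 1, 2 and 3, at 627, 547 and 1222 in stress, and at 837, 979 and 548 in KYZY. Stress 3 was the highest, and the groups overlapped. Its log2 fold change was 0.43 (SE 0.361) in stress minus control, -0.02 (SE 0.360) in KYZY minus stress and 0.41 (SE 0.361) in KYZY minus control. Without stress 3 the first of these was -0.01 and the second 0.42. Leaving out the 4 libraries gave -0.02, 0.53 and 0.50.

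Atf6 (chr1:170704674-170867771) was at 30.9, 34.3 and 34.95 CPM in control, 23.45, 28.1 and 31.6 in stress, and 29.25, 27.2 and 29.85 in KYZY. Its KYZY libraries lay below the 3 control libraries, with a log2 fold change of -0.22 (SE 0.176), and its stress libraries overlapped both groups. The other log2 fold changes were -0.27 (SE 0.176) in stress minus control and 0.05 (SE 0.176) in KYZY minus stress. Leaving out the 4 libraries gave -0.33 in stress minus control, 0.20 in KYZY minus stress and -0.13 in KYZY minus control. The within-group SD of its log2 level was 0.141, smaller than in all but 2.3% of genes, and the median gene had 0.357.

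Eif2ak3 (chr6:70844515-70905245) had low levels, at 2.84, 4.02 and 5.17 CPM in control, 2.32, 1.66 and 1.83 in stress, and 1.53, 2.54 and 5.69 in KYZY. Each stress library was below each control library. The log2 fold change was -1.05 (SE 0.459) in stress minus control and 0.75 (SE 0.457) in KYZY minus stress, where the groups overlapped. In KYZY minus control, which also overlapped, it was -0.30 (SE 0.454). When the 4 libraries that stand apart were left out, these were -0.77, -0.36 and -1.13, so the sign of the second turned. Without KYZY 3 alone the second was 0.10. An unnamed transcript (Gm43292) shares 485 exonic bases with Eif2ak3 on the opposite strand, and the library kit does not mark strand.

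The transcription factor Xbp1 (chr11:5520659-5525893) was near 0 in 5 libraries. It was at 0, 0.0764 and 4.31 CPM in control 1, 2 and 3, at 0, 0.1745 and 1.77 in stress, and at 0.237, 5.86 and 5.47 in KYZY. Control 3, stress 3, KYZY 2 and KYZY 3 held 114 to 399 counts, and the others 0 to 20. In control 1, control 2 and stress 1 the count was under the floor of 12. The libraries with Xbp1 are those with the most cumulus and granulosa markers. The summed marker level ranged from 648 to 940 CPM in control, 712 to 1461 in stress and 784 to 1834 in KYZY, and the part of these markers in the Xbp1 values was not tested. In pooled oocytes, fewer cells of a type and less RNA per cell cannot be told apart. The log2 fold changes of Xbp1 had wide errors, at -1.19 (SE 2.32) in stress minus control and 2.59 (SE 2.41) in KYZY minus stress. In KYZY minus control the value was 1.40 (SE 2.30). Leaving out 1 library at a time, the first ranged from -3.98 to 3.84, so its sign was not stable. Without stress 3 the stress counts left are 0 and 20, and without control 3 the control counts left are 0 and 8. Such values lie near or under the floor. No fold change is given without the 4 libraries, where the control counts are the same 0 and 8. In control 1 and stress 1, Ern1 had 44208 and 51084 counts beside a count of 0 for Xbp1, whose mRNA it splices.

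Atf4 (chr15:80255184-80257541) was highest in KYZY. Its levels were 21.6, 11.5 and 35.1 CPM in control, 25.2, 13.0 and 27.6 in stress, and 41.7, 33.2 and 50.8 in KYZY. Each KYZY library was above each stress library, while control 3 overlapped KYZY 2. Means were 22.8 ± 11.8, 21.9 ± 7.86 and 41.9 ± 8.80 CPM (SD, n = 3). The log2 fold change was 0.93 (SE 0.407) in KYZY minus stress and 0.88 (SE 0.406) in KYZY minus control, and -0.05 (SE 0.403) in stress minus control. They were 1.14, 1.36 and 0.22 without the 4 libraries that stand apart, where KYZY 1 alone represents its group.

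Ddit3, which encodes CHOP (chr10:127290774-127296288), was at 1.31, 1.23 and 2.07 CPM in control, 1.41, 1.23 and 1.27 in stress, and 1.22, 0.998 and 2.04 in KYZY. Control 3 and KYZY 3 were the high libraries, and the groups overlapped. The log2 fold changes were -0.24 (SE 0.404), 0.12 (SE 0.405) and -0.12 (SE 0.405) in stress minus control, KYZY minus stress and KYZY minus control. Leaving out the 4 libraries gave 0.07, -0.10 and -0.03, so the signs of the first and second turned. The gene shares 68 exonic bases with Mars on the opposite strand, whose reads cannot be told apart there.

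Both chaperones were highest in the same 4 libraries, whatever their group. Hspa5, the luminal Hsp70 protein BiP (chr2:34771970-34777547), was at 43.7, 57.8 and 73.1 CPM in control, 48.2, 39.6 and 83.5 in stress, and 46.5, 78.5 and 72.6 in KYZY. Hsp90b1, the luminal Hsp90 protein GRP94 (chr10:86690209-86705509), was at 111, 90.5 and 205 CPM in control, 148, 112 and 291 in stress, and 114, 235.5 and 230.5 in KYZY. For each of them the 4 highest libraries were control 3, stress 3, KYZY 2 and KYZY 3, which also hold the most cumulus and granulosa markers. The groups overlapped for both. In stress minus control, the log2 fold change was -0.03 (SE 0.323) for Hspa5 and 0.44 (SE 0.441) for Hsp90b1, and in KYZY minus stress it was 0.21 (SE 0.323) and 0.07 (SE 0.440). In KYZY minus control it was 0.18 (SE 0.323) and 0.51 (SE 0.441). Without the 4 libraries Hspa5 was at -0.19 in stress minus control, 0.10 in KYZY minus stress and -0.10 in KYZY minus control, where its sign turned. Hsp90b1 was then at 0.39, -0.18 and 0.21 in the same order, and its sign turned in KYZY minus stress. Without stress 3 alone the values in stress minus control were -0.41 and -0.06. The part of the markers in these levels was not tested. Hsp90b1 shares 415 exonic bases with the opposite-strand pseudogene 1810014B01Rik, so a portion of its count may come from there.

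**Figure D3:**
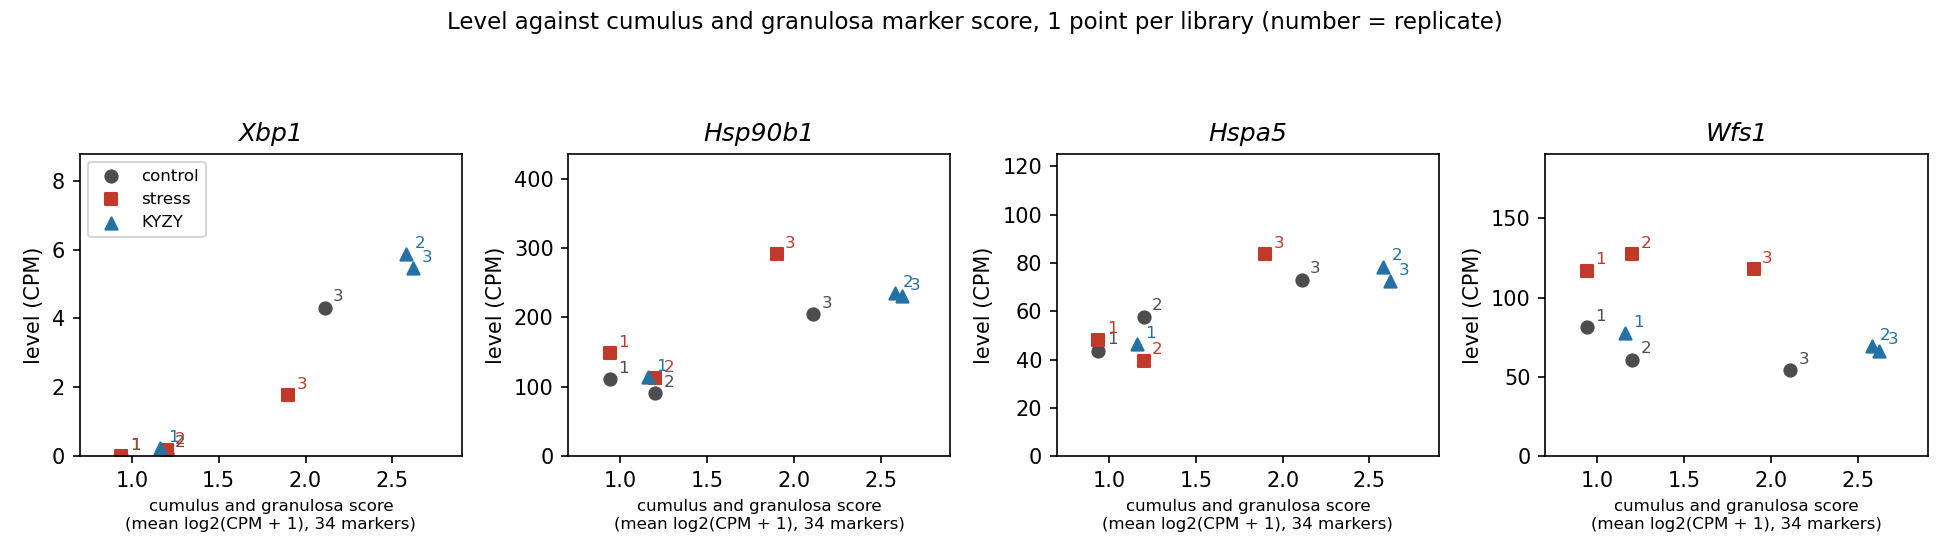
Level of Xbp1, Hsp90b1, Hspa5 and Wfs1 in CPM against the cumulus and granulosa score, the mean log2(CPM + 1) of 34 markers, with 1 point per library and the replicate number beside it. For the first 3 genes the 4 libraries with scores of 1.90 to 2.62 are the 4 highest, while for Wfs1 the 3 stress libraries are the highest at scores of 0.94 to 1.90.

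Sel1l, the adaptor of the HRD1 ubiquitin ligase in ER-associated degradation (chr12:91806043-91849157), was at 27.5, 35.1 and 34.3 CPM in control, 36.3, 34.7 and 34.2 in stress, and 30.4, 26.6 and 24.4 in KYZY. Each KYZY library was below each stress library, and control 1 lay among the KYZY values. The log2 fold change was -0.37 (SE 0.178) in KYZY minus stress, 0.12 (SE 0.177) in stress minus control and -0.25 (SE 0.178) in KYZY minus control. These were -0.21, 0.20 and -0.01 without the 4 libraries. Like Atf6, it varied little within groups, with an SD of 0.145 on the log2 scale.

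Read over the whole table, no member passed the test in any of the 3 comparisons. With edgeR's quasi-likelihood test and Benjamini-Hochberg adjustment over 13890 genes, 0 of 10 members were called in stress minus control, where 0.0% of all genes were called. The same held in KYZY minus stress (0 of 10, 0.0% of all genes) and in KYZY minus control (0 of 10, 0.0%). At an unadjusted p under 0.05 there were 2 of 10 in stress minus control (Wfs1 and Eif2ak3; 2.69% of all genes), 2 of 10 in KYZY minus stress (Wfs1 and Atf4; 3.98%) and 0 of 10 in KYZY minus control (2.74%). The DESeq2 Wald test called 1 member, Wfs1, in stress minus control (0.162% of genes), and 0 in KYZY minus stress (0.0636%) and KYZY minus control (0.0053%). Wfs1 was chosen on stress minus control, and KYZY minus stress uses the same stress libraries. Nothing is therefore read from its place in the counts of either comparison.

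Groups did not overlap for 2 of 10 members in stress minus control, beside 7.88% of all genes. These were Wfs1, higher (3.51% of all genes), and Eif2ak3, lower (4.38%). In KYZY minus stress they did not overlap for 3 of 10, beside 9.19% of all genes, with Atf4 higher (3.76% of all genes) and Wfs1 and Sel1l lower (5.44%). In KYZY minus control this was 1 of 10, beside 7.23%. It was Atf6, lower (4.79% of all genes), and 0 members were higher (2.43%). Nothing is read from the place of Wfs1 in the counts of stress minus control and KYZY minus stress, for the reason given above. The median log2 fold change of the members was -0.04 in stress minus control (all genes -0.03), 0.10 in KYZY minus stress (0.01) and 0.15 in KYZY minus control (0.00). In those comparisons 4, 7 and 6 of the 10 had a log2 fold change above 0, beside 46.0%, 50.8% and 49.7% of all genes. The count in stress minus control was 8 without control 3, 2 without stress 3 and 6 without the 4 libraries. In KYZY minus stress it was 5 without stress 1 and 5 without the 4 libraries. The comparisons share groups, so they are not independent.

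**Figure D4:**
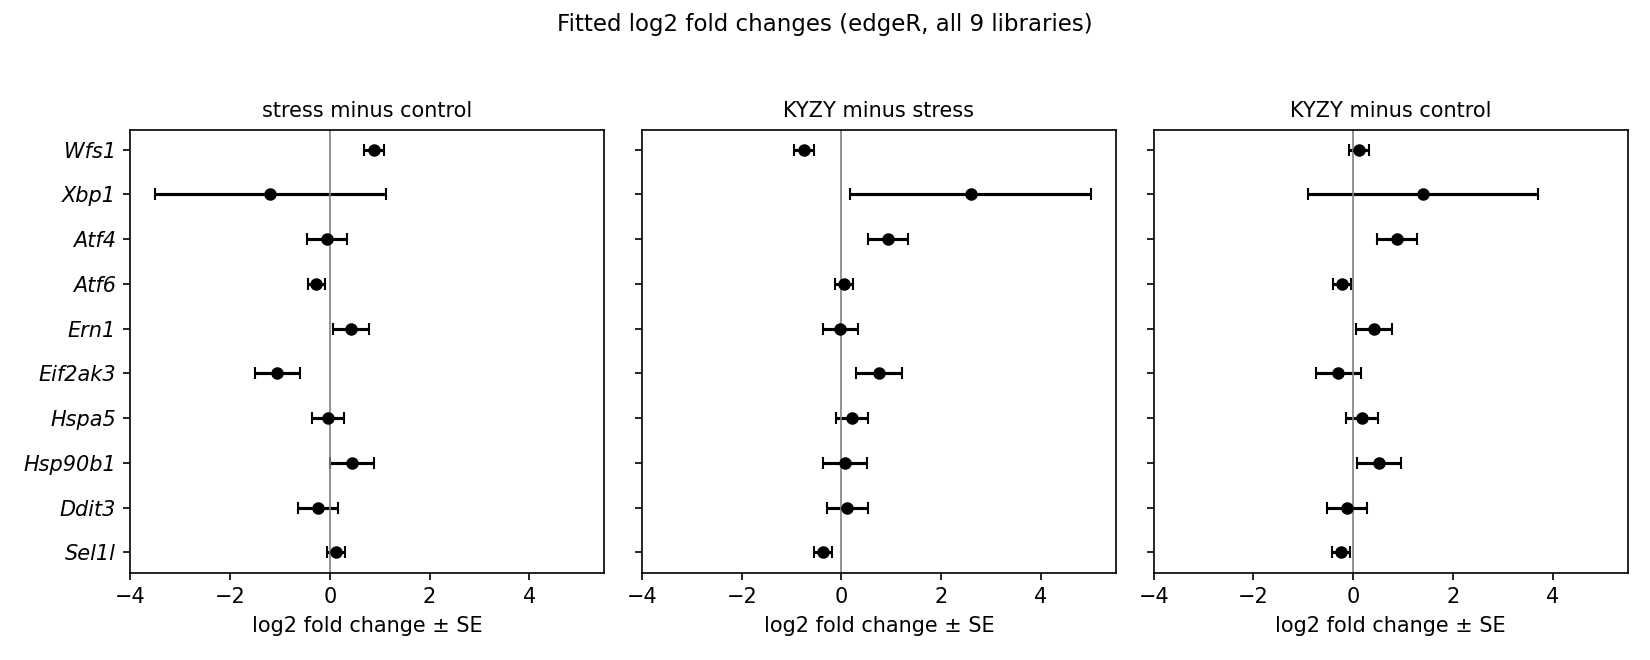
Fitted log2 fold change and standard error of each member in the 3 comparisons, from edgeR over all 9 libraries. Wfs1 lies at 0.88 in stress minus control and at -0.76 in KYZY minus stress, and Xbp1 has the widest error in each comparison.

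Further genes of the pathway were described by lists, and 0 of them were called in any comparison. From each list the 2 genes of highest CPM are named. For each comparison, so is the gene of smallest unadjusted p among those without overlap. These were picked as extremes, so nothing is read from their differences. Per list and comparison, 0 to 3 genes were higher without overlap and 0 to 3 lower. Over all genes the share without overlap was 7.88% in stress minus control, 9.19% in KYZY minus stress and 7.23% in KYZY minus control. Markers of other cell types lay to one side of 0 in some of the same comparisons, and their part in the list values was not tested. In KYZY minus stress, 28 of 29 cumulus and granulosa markers tested were above 0 (median log2 fold change 1.57), 7 of 8 oviduct epithelium markers (1.89), 8 of 10 stroma and endothelium markers (2.43) and 5 of 6 blood and immune markers (1.25). In stress minus control these counts were 14 of 29 (-0.09), 0 of 8 (-1.03), 2 of 10 (-2.28) and 3 of 6 (-0.03). In KYZY minus control they were 26 of 29 (1.73), 4 of 8 (0.07), 9 of 10 (0.25) and 4 of 6 (2.14). None of these markers was called. In the list around wolframin and ER calcium, 14 of 15 genes were tested, and 6 of 14 were above 0 in stress minus control, with a median log2 fold change of -0.05. Its most abundant gene by CPM was Tmbim6, an ER membrane inhibitor of cell death, at 121 ± 23.1 CPM in control, 155 ± 12.0 in stress and 165 ± 43.6 in KYZY. The calcium release channel Itpr2 was at 131, 114 and 83.5 CPM in control, 77.3, 70.8 and 25.6 in stress, and 31.3, 73.4 and 71.7 in KYZY, with both later groups below control. Its sister channel Itpr3, at lower levels, was the other way round in stress, at 2.40 ± 0.315 against 1.40 ± 0.438 CPM in control. Tmco1, a calcium load-activated channel, was at 8.29 ± 1.28 CPM in KYZY and 11.8 ± 1.14 in control.

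Among sensors, processing enzymes and signalling genes, 17 of 20 were tested, with a median of -0.13 in stress minus control and 0.17 in KYZY minus stress. The stress kinase Mapk8 (JNK1) was at 208 ± 58.7, 193 ± 82.0 and 178 ± 43.6 CPM in control, stress and KYZY. Creb3l4, an ER-bound transcription factor, was at 49.6 ± 3.52, 47.9 ± 7.53 and 41.6 ± 10.5 CPM. Map3k5 (ASK1), a kinase that acts downstream of IRE1 alpha, was at 29.7 ± 6.69 CPM in KYZY and 20.5 ± 0.906 in stress, without overlap. Its control level was 23.1 ± 3.17 CPM. In stress, Bax, a pro-apoptotic protein, had 3.41 ± 1.15 CPM against 5.52 ± 1.53 in control and 5.19 ± 1.63 in KYZY. Nfe2l2 (NRF2), a PERK substrate, stood at 3.89 ± 0.627 in KYZY, 2.75 ± 0.509 in control and 2.51 ± 0.402 in stress.

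In the list of eIF2 alpha kinases, phosphatases and eIF2B subunits, 10 of 15 genes were above 0 in stress minus control (median 0.06) and 3 of 15 in KYZY minus stress (median -0.09). Eif2b1 was at 537 ± 80.6, 560 ± 202 and 552 ± 44.8 CPM in control, stress and KYZY. Dnajc3 (p58IPK), a co-chaperone first known as an inhibitor of eIF2 alpha kinases, was at 361 ± 84.2, 420 ± 163 and 411 ± 83.3 CPM. Eif2b2 was at 6.42 ± 1.10 CPM in KYZY, 9.93 ± 1.46 in control and 8.88 ± 2.62 in stress.

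Of the targets of ATF4 and CHOP, 24 of 26 were tested, 15 of 24 were above 0 in KYZY minus stress, and the median was 0.11. Mthfd2, a mitochondrial folate enzyme, was at 567 ± 135, 543 ± 181 and 589 ± 67.4 CPM in control, stress and KYZY, and Slc3a2, a heavy chain of amino acid transporters, at 227 ± 82.3, 244 ± 81.8 and 246 ± 63.6. Bcl2l11 (BIM) was at 12.3 ± 0.291 CPM in KYZY and 10.0 ± 1.11 in control. The lipoprotein receptor Vldlr had 0.832 ± 0.613 CPM in stress against 0.241 ± 0.215 in control, where control 1 was at 0, and the death receptor Tnfrsf10b was at 0 in 3 of 3 stress libraries and at 0.126, 0.499 and 0.327 CPM in KYZY, the first of these under its floor of 0.190.

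Of 28 ER chaperones and folding enzymes, all tested, 17 were above 0 in stress minus control (median 0.08) and 12 in KYZY minus stress (median -0.04). Creld2 was at 828 ± 239, 972 ± 301 and 739 ± 129 CPM and the disulfide isomerase Txndc5 at 441 ± 106, 472 ± 112 and 407 ± 95.9 CPM in control, stress and KYZY. Levels of Qsox1, a thiol oxidase, were 4.73, 4.05 and 5.60 CPM in control, 11.3, 7.61 and 7.16 in stress, and 7.80, 7.87 and 6.22 in KYZY. Its stress and KYZY libraries both lay above control, with log2 fold changes of 0.86 (SE 0.255) and 0.61 (SE 0.255). Manf, a secreted ER stress factor, was at 7.33 ± 0.912 CPM in KYZY, 5.76 ± 0.579 in stress and 5.97 ± 1.43 in control.

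In ER-associated degradation 10 of 31 genes were above 0 in stress minus control (median -0.10) and 19 of 31 in KYZY minus stress (median 0.08). The ubiquitin-conjugating enzyme Ube2g1 was at 501 ± 80.9, 460 ± 33.3 and 523 ± 84.0 CPM, and the ligase March6 at 386 ± 84.8, 403 ± 81.7 and 361 ± 68.8 CPM. Derl1, a channel component, averaged 3.88 ± 0.618 CPM in stress against 5.54 ± 1.29 in control and 7.23 ± 3.14 in KYZY. Ube2j1 averaged 6.20 ± 1.30 in KYZY, 4.32 ± 0.238 in stress and 4.655 ± 1.84 in control. Nploc4, a cofactor of the VCP segregase, was at 6.62 ± 0.738 CPM in KYZY, 9.96 ± 1.41 in control and 9.555 ± 2.62 in stress.

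For translocation and signal peptidase genes, 9 of 23 were above 0 in stress minus control (median -0.02) and 11 of 23 in KYZY minus stress (median -0.08). Sec61a1, the pore of the translocon, was at 204 ± 62.5, 232 ± 2.86 and 182 ± 55.6 CPM in control, stress and KYZY, and the signal peptidase subunit Spcs2 at 163 ± 19.1, 186 ± 26.2 and 175 ± 21.9. Sec11c, a peptidase subunit, averaged 5.69 ± 0.371 CPM in stress against 8.44 ± 0.539 in control and 6.91 ± 2.49 in KYZY. For Ssr2 the KYZY levels were 1.33, 5.65 and 5.47 CPM, and the stress levels 0.724, 1.01 and 1.02. Its 2 high libraries, KYZY 2 and KYZY 3, are also those with the highest cumulus and granulosa scores, whose part was not tested.

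**Figure D5:**
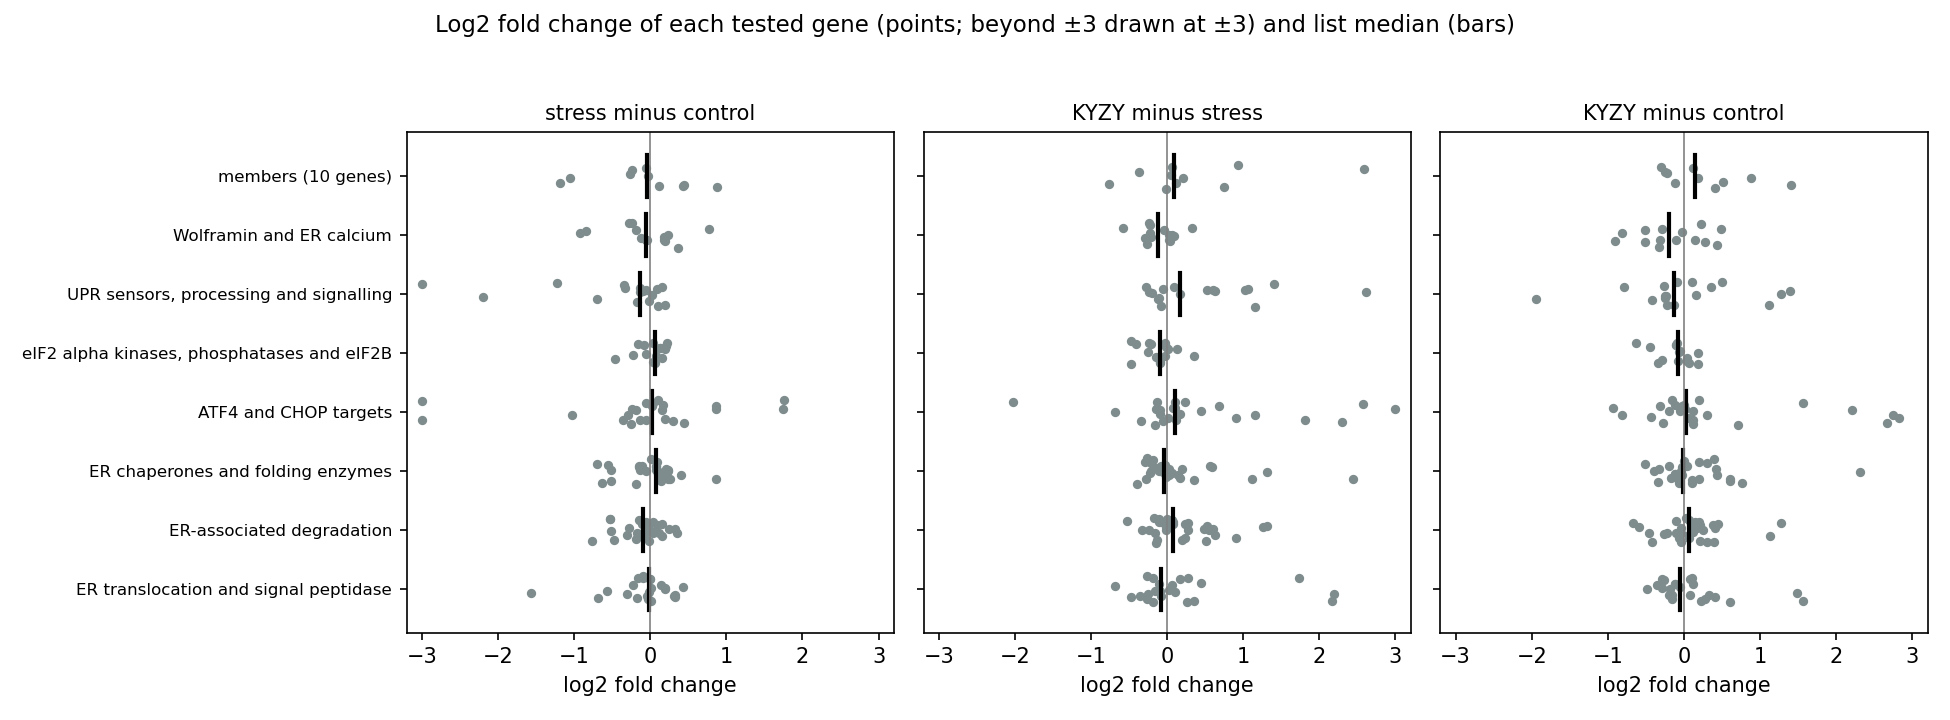
Log2 fold change of every tested gene of the 10 members and of 7 pathway lists in the 3 comparisons (points, those beyond 3 in size drawn at the edge) with the median of each list (bars). List medians lie between -0.20 and 0.17, and points scatter to both sides of 0 in each list.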

How the data were processed

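RNA of 9 oocyte pools was measured with the SMART-Seq v4 kit and Tn5 libraries, per the labels' protocols. The deposited tables hold expected counts (estimated reads per gene, whole numbers, not normalized), with 1 table for each library. Their unit is not named and was inferred from the numbers. In control 1, 401 genes had a value of 4 and 53 a value of 3, so a read pair appeared to be worth about 4 counts. Without giving roles, the submitters' processing notes list StringTie, DESeq2, HISAT2, bcl2fastq 2.20 and Trim Galore. The builds they name are GRCm38 and mm10, and positions here are those of GENCODE M21 on GRCm38.

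The members and the gene lists were chosen with earlier results of these data known. Differences were fitted with edgeR 4.0.16 under R 4.3.3: TMM scaling, filterByExpr (minimum count 10, minimum total 15), 1 mean per group over all 9 libraries, 6 residual degrees of freedom, 2-sided quasi-likelihood F tests, and Benjamini-Hochberg adjustment over 13890 genes at 0.05. The script was tested on simulated data. DESeq2 1.42.0 and voom of limma 3.58.1 were alternatives. Levels are TMM-scaled CPM, divided for comparison between genes by the longest coding transcript of GENCODE M21. Each library is from 1 mouse, so n counts mice.

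Replicate numbers come from the sample titles. Across genes, deviations from group means correlated at 0.31, 0.18 and 0.35 for control and stress libraries of number 1, 2 and 3, so these were treated as paired in an alternative. For KYZY, number 1 gave 0.40 with stress and 0.51 with control, and number 3 gave 0.17 and 0.56. Number 2 gave -0.15 with stress and -0.14 with control, so a pairing of the KYZY libraries by number was less clear. A replicate block in all 9 libraries, run as an alternative, did use these numbers. The block fitted to the control and stress libraries only did not.

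Named genes are all members, the 2 genes of highest mean CPM in each pathway list, the gene of smallest unadjusted p among those without overlap in each list and comparison, and the 5 genes most like Wfs1. Marker lists for oocytes, cumulus and granulosa, oviduct epithelium, blood and immune, and stroma and endothelium cells were used to describe the libraries.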

Additional observations from a re-analysis of the deposited data

How the results depend on the processing

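The count of members called was 0 in all 3 comparisons under the alternatives run, except that DESeq2 called 1, Wfs1, in stress minus control. Over the whole table edgeR called 0 genes in each comparison, and DESeq2 called 24 in stress minus control, 12 in KYZY minus stress and 1 in KYZY minus control. Without the 4 libraries of highest marker score 148, 115 and 119 genes were called in that order, with 2 residual degrees of freedom and KYZY 1 assumed to vary like the other groups. A fit of only the groups compared called 1 gene in KYZY minus stress. With a replicate block in all 9 libraries 0 genes were called in each comparison. The replicate block fitted to the control and stress libraries only, an alternative chosen after seeing the data, called 1 gene and 0 members, and the block changed no call of a member. Of the control and stress libraries, control 2 correlated better with stress 1 (0.23) than with stress 2 (0.18). Leaving out 1 library at a time gave 0 to 2 genes in stress minus control, 0 to 1 in KYZY minus stress and 0 to 3 in KYZY minus control, the higher counts each without control 3.

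The median of the members ranged from -0.24 (without stress 3) to 0.29 (without control 3) in stress minus control, 0.05 to 0.50 (without stress 3) in KYZY minus stress and 0.11 to 0.30 (without control 3) in KYZY minus control. Without the 4 libraries it was 0.13 in stress minus control. Leaving out 1 library, Wfs1 ranged from 0.77 to 1.07 in stress minus control and from -0.83 to -0.70 in KYZY minus stress, Atf4 from 0.69 to 1.13 in KYZY minus stress, and Sel1l from -0.46 to -0.28. Of 550 single-gene values, 20 moved by more than the within-group SD, in 6 genes. The cause of these shifts was not tested. The count of Xbp1 was under the floor in 3 of 9 libraries. KYZY 3, the library of lowest total count and of the highest cumulus and granulosa score (2.62), held 268. The part of depth or of the markers in these counts was not tested.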

Other observations

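The genes in this part were chosen after their values were seen. Pdia6, an ER disulfide isomerase, was highest in the 4 libraries with the most cumulus and granulosa markers: 40.8 CPM in control 3, 31.85 in stress 3, 40.2 in KYZY 2 and 46.5 in KYZY 3. The other 5 libraries had 17.99 to 19.4 CPM. Herpud1, a degradation factor with an ERSE-II match in its promoter, had 1.84 CPM in KYZY 3, 1.13 in KYZY 2 and 1.03 in control 3, and 0.0632 to 0.523 in the other 6 libraries, stress 3 included. Hyou1, another luminal chaperone, was at 38.5 to 44.4 CPM in the 4 marker-rich libraries and at 35.7 to 47.5 in the other 5.

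Among eIF2 alpha kinases, Eif2ak1 was at 205 to 423 CPM and Eif2ak4 at 30.3 to 50.3 over the 9 libraries, while Eif2ak2 was at 0.584 to 1.75. Ppp1r15a, a phosphatase subunit for eIF2 alpha and known as a target of CHOP, was at 89.7 to 136.5 CPM in libraries where Ddit3 was at 0.998 to 2.07. Trib3, another known target of CHOP, did not pass the filter on low counts, with 0 to 0.471 CPM. The amino acid response element of ATF4 was found in the promoters of 8 of 22 genes in the list of ATF4 and CHOP targets, beside 3.44% of all promoters. A gene was counted when any of its promoters matched, so the units differ. The list was drawn up as targets of these factors, so nothing is read from the difference.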
